A study of Arabidopsis thaliana with 18 samples.

Results

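The genes described here are 5 heat shock and co-chaperone genes of Arabidopsis thaliana: AT5G48570, Hop3 (AT4G12400), AT1G53540, AT5G51440 and AT5G37670. They were taken by name, with earlier results of these data known, each from the probe set annotated to that gene alone. This gave 5 probe sets among 13513 that name 1 gene and 22746 that were tested. RNA of whole rosettes, in the Columbia-0 background and 5 weeks old, was measured on 18 Affymetrix arrays, 3 for each of 6 groups. The 3 genotypes were wild type, 35S::HA::RAP2.12 (written HA-RAP2.12 below) and 35S::amiRAP2.2-12 (amiRAP2.2-12), and each was held for 1.5 h in darkness either at 21% oxygen (air) or at 1% oxygen (hypoxia), so the controls shared the darkness and differed in oxygen. RAP2.12 is an ethylene response factor that activates low-oxygen genes; the first construct adds a haemagglutinin tag to it, and the second is named as an artificial microRNA against RAP2.2 and RAP2.12. The 35S promoter of cauliflower mosaic virus drives expression in most plant cells, and the labels state neither how many independent lines were used nor whether replicates came from separate plants, so p-values measure only the spread between these samples.

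Heat shock proteins are molecular chaperones that bind unfolded or partly folded proteins. Small heat shock proteins hold unfolding proteins in a soluble state, HSP70 and HSP90 refold and mature them with ATP, and co-chaperones steer clients between these machines. In leaves, many but not all small heat shock protein genes are nearly silent at moderate temperature. Many are strongly induced by heat and by several other stresses through heat shock transcription factors. Among the 5 genes, AT5G48570 encodes the FK506-binding peptidyl-prolyl isomerase FKBP65 (ROF2), which binds HSP90, and Hop3 encodes an HSP70-HSP90 organising protein, a scaffold that links both chaperones. AT1G53540 encodes a cytosolic class I small heat shock protein, AT5G51440 a mitochondrial one and AT5G37670 a peroxisomal one.

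All values are log2 levels after the authors' GCRMA normalisation, and differences are log2 differences with the standard error (SE) of a limma fit across all probe sets. A gene was said to rise or fall where its Benjamini-Hochberg adjusted p over the 22746 probe sets was under 0.05. In air AT5G51440 and AT1G53540 lay under log2 2.5 on every array, as did Hop3 on 8 of 9, close to 2.11, the lowest value in the table. A change from there is measured from the floor of the scale, and its size may understate the change in RNA. AT5G48570 held one identical value, 4.1646, on 3 of the 18 arrays, 1 in each air group. AT5G37670 held 4.303 on 4 of the 18 arrays. Levels of these genes near those values may therefore lie at background too, which was not tested. In whole rosettes fewer cells of a type and less RNA per cell cannot be told apart.

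Hypoxia raised both co-chaperone genes in wild type, and the hypoxia arrays of the transgenic lines read below the wild type ones on 6 of 6 arrays for AT5G48570 and 5 of 6 for Hop3. AT5G48570 read 3.70, 4.16 and 4.40 on the wild type air arrays and 9.94, 10.25 and 10.18 under hypoxia. In HA-RAP2.12 it read 4.16, 3.91 and 4.41 in air and 9.39, 8.13 and 7.73 under hypoxia. In amiRAP2.2-12 it read 4.30, 3.92 and 4.16 in air and 9.82, 7.89 and 8.25 under hypoxia. Every hypoxia array stood far above every air array, and the 3 wild type hypoxia arrays stood above all 6 hypoxia arrays of the transgenic lines. The rise was 6.04 (SE 0.47, adjusted p = 1.6e-06) in wild type, a 65.8-fold change and the 28th highest difference of all probe sets. It was 4.26 (adjusted p = 3.24e-05) in HA-RAP2.12 and 4.53 (adjusted p = 3.09e-05) in amiRAP2.2-12.

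Under hypoxia the mean of AT5G48570 was 10.1 ± 0.16 (SD, n = 3) in wild type, 8.65 ± 1.03 in amiRAP2.2-12 and 8.41 ± 0.87 in HA-RAP2.12. The difference from wild type was -1.71 (SE 0.47, adjusted p = 0.0587) in HA-RAP2.12 and -1.47 (SE 0.47, adjusted p = 0.174) in amiRAP2.2-12, and neither passed. The lines themselves overlapped and differed by -0.24 (SE 0.47), and the 3 air groups lay at means between 4.09 and 4.16.

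Hop3 separated the genotypes more than AT5G48570 did by size, although no test compared the genes with each other. It read 2.39, 2.39 and 2.91 in wild type air and 7.06, 7.49 and 7.51 in wild type hypoxia. All 6 air arrays of the transgenic lines held one identical value, 2.39, which 8 of the 18 arrays shared in all. Under hypoxia HA-RAP2.12 read 5.05, 3.43 and 3.49. The amiRAP2.2-12 hypoxia arrays read 7.23, 3.19 and 4.26, so replicate 1 fell among the wild type arrays while the other two stayed near the HA-RAP2.12 values.

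Hop3 rose by 4.79 (SE 0.76, adjusted p = 0.000528) in wild type and by 2.50 (SE 0.76, adjusted p = 0.0408) in amiRAP2.2-12. The amiRAP2.2-12 call held in 3 of the 18 fits that left out 1 array, with adjusted p up to 0.0963. In HA-RAP2.12 the difference was 1.59 (adjusted p = 0.197) and did not pass, although its 3 hypoxia arrays all lay above its air arrays. Under hypoxia Hop3 was lower in HA-RAP2.12 than in wild type by 10.3-fold (-3.37, SE 0.76, adjusted p = 0.0253), the 7th lowest difference of all probe sets. That call was lost without any 1 of the 3 wild type hypoxia arrays or without HA-RAP2.12 hypoxia replicate 2 or 3, with adjusted p up to 0.107. Against wild type amiRAP2.2-12 differed by -2.46 (SE 0.76, adjusted p = 0.157), with overlapping arrays. The order of the hypoxia means was wild type (7.35 ± 0.26), amiRAP2.2-12 (4.89 ± 2.09) and HA-RAP2.12 (3.99 ± 0.92), and the lines did not differ beyond their spread (-0.91, SE 0.76).

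AT1G53540, the cytosolic class I small heat shock protein gene, had the plainest contrast between genotypes of the 5. In air it lay between 2.15 and 2.21 on all 9 arrays. Under hypoxia it read 6.51, 6.71 and 7.16 in wild type, but 2.72, 2.21 and 2.21 in HA-RAP2.12. In amiRAP2.2-12 it read 6.05, 2.50 and 2.21. Thus 2 of 3 HA-RAP2.12 arrays and 1 amiRAP2.2-12 array under hypoxia were at the air level, and the single high array of a transgenic line was amiRAP2.2-12 replicate 1.

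AT1G53540 rose in wild type by 4.60 (SE 0.72, adjusted p = 0.000458), from a mean of 2.19 to 6.79 ± 0.34. The difference was 0.17 (SE 0.72, adjusted p = 1) in HA-RAP2.12 and 1.38 (SE 0.72, adjusted p = 0.256) in amiRAP2.2-12. Under hypoxia it was lower in HA-RAP2.12 than in wild type (-4.42, SE 0.72, adjusted p = 0.00542). The HA-RAP2.12 mean there, 2.38 ± 0.29, was itself under log2 2.5, so this difference too is measured against the floor. It was lower in amiRAP2.2-12 as well (-3.21, SE 0.72, adjusted p = 0.0491). The HA-RAP2.12 call held without each of the 18 arrays in turn, with adjusted p of at most 0.0267. The amiRAP2.2-12 call held only without amiRAP2.2-12 hypoxia replicate 1 and was lost on leaving out any of the other 17 arrays, with adjusted p up to 0.175.

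AT5G51440, the gene of the mitochondrial small heat shock protein, was at the floor on all 9 air arrays, with group means of 2.1196 to 2.122. Wild type read 6.45, 6.35 and 5.41 under hypoxia and HA-RAP2.12 5.03, 5.78 and 4.32. The hypoxia arrays of amiRAP2.2-12 read 7.58, 3.34 and 4.70. All hypoxia arrays were above all air arrays, and the genotypes overlapped under hypoxia, with both the highest and the lowest array in amiRAP2.2-12. The gene rose in every genotype, by 3.95 (SE 0.77, adjusted p = 0.00238) in wild type, 2.92 (adjusted p = 0.0169) in HA-RAP2.12 and 3.08 (adjusted p = 0.0158) in amiRAP2.2-12. The HA-RAP2.12 rise did not pass without HA-RAP2.12 hypoxia replicate 2 (adjusted p = 0.0681). The amiRAP2.2-12 rise did not pass with only the arrays compared (adjusted p = 0.307), and its size ran from 1.90 to 4.02 on leaving out 1 array. Between genotypes under hypoxia the differences from wild type were -1.02 (SE 0.77, adjusted p = 0.608) and -0.86 (SE 0.77, adjusted p = 0.785). The means fell in the order wild type (6.07 ± 0.58), amiRAP2.2-12 (5.20 ± 2.16) and HA-RAP2.12 (5.04 ± 0.73), and no neighbours in that order differed beyond their spread.

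AT5G37670, the gene of the peroxisomal small heat shock protein, moved least. It read 3.93, 4.30 and 4.30 in wild type air and 4.49, 5.37 and 5.25 in wild type hypoxia. In HA-RAP2.12 it read 4.24, 4.10 and 4.30 in air and 4.33, 4.41 and 4.30 under hypoxia. In amiRAP2.2-12 it read 3.78, 4.01 and 4.30 in air and 6.09, 4.70 and 4.80 under hypoxia. The HA-RAP2.12 hypoxia arrays were thus within the range of air levels or just above it, while those of the other genotypes all exceeded every air array.

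The gene rose in amiRAP2.2-12 alone by the adjusted p (1.16, SE 0.32, adjusted p = 0.0259), where replicate 1 stood highest. That call was lost in 3 of the 18 fits that left out 1 array. It was also lost with only the arrays compared (adjusted p = 0.308). The differences were 0.86 (SE 0.32, adjusted p = 0.0802) in wild type and 0.13 (SE 0.32, adjusted p = 1) in HA-RAP2.12. By limma the response in amiRAP2.2-12 did not differ from that in wild type (0.31, SE 0.45, adjusted p = 0.971). Under hypoxia it stood at 5.20 ± 0.78 in amiRAP2.2-12, 5.04 ± 0.48 in wild type and 4.35 ± 0.05 in HA-RAP2.12. The difference of HA-RAP2.12 from wild type was -0.69 (SE 0.32, adjusted p = 0.313).

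**Figure D1:**
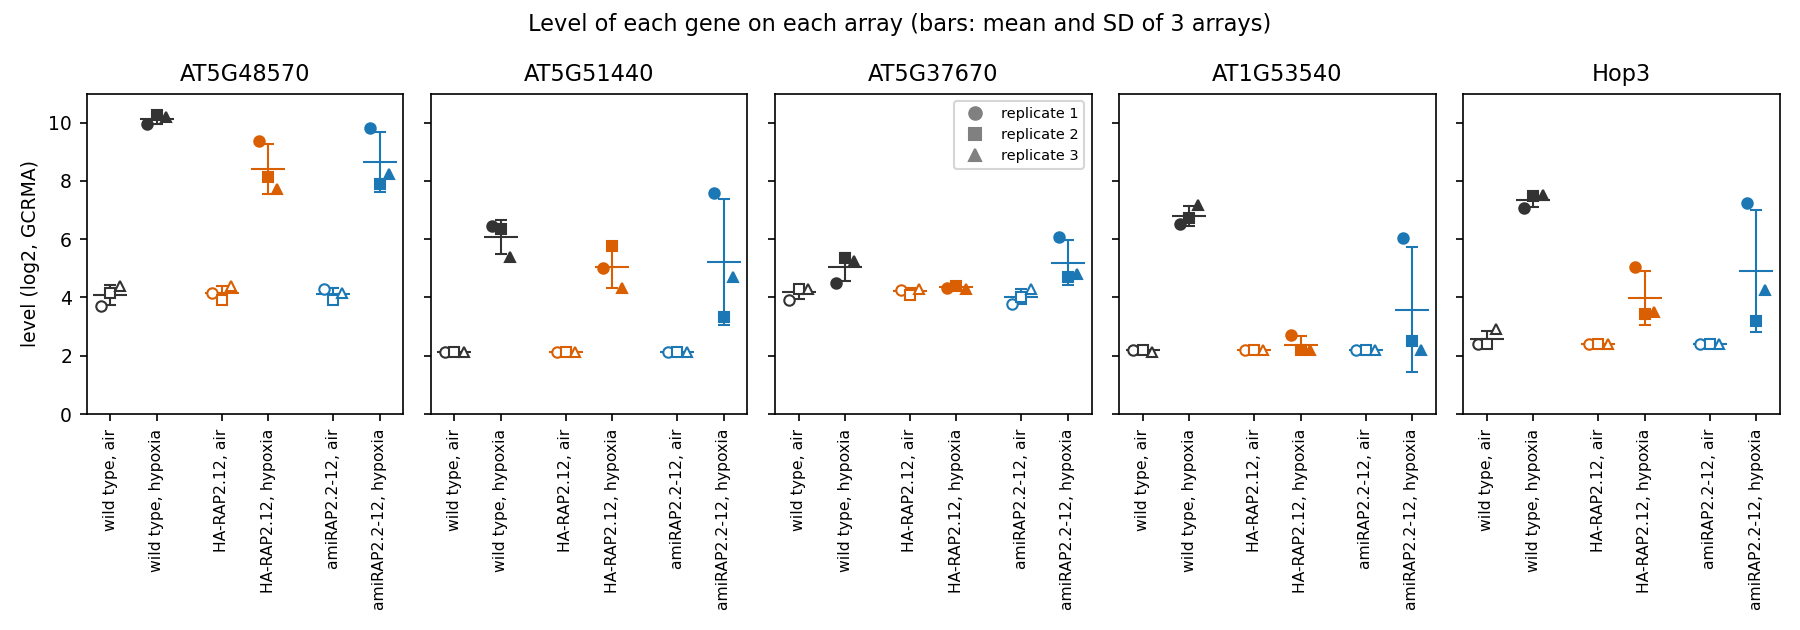
Log2 GCRMA level (y axis) of each of the 5 genes on each of the 18 arrays by genotype and oxygen; open symbols are air, filled symbols hypoxia, the symbol shape gives the replicate number, and the bars show the mean and SD of 3 arrays. AT1G53540 and Hop3 are high on all 3 wild type hypoxia arrays and on amiRAP2.2-12 hypoxia replicate 1 (6.05 and 7.23). Both are lower on the other hypoxia arrays of the transgenic lines. There Hop3 (3.19 to 5.05) still lies above its air level in those lines (2.39).

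Counted together, 4 of the 5 genes rose in wild type, against 11.5% of all probe sets called higher there. Because the 5 genes were chosen with earlier results of these data known, the shares here and below are a description. In HA-RAP2.12 2 of 5 rose, AT5G48570 and AT5G51440, against 10.4%. In amiRAP2.2-12 4 of 5 rose, against 8.04%, the exception being AT1G53540. The median difference over the 5 genes was 4.60 in wild type, 1.59 in HA-RAP2.12 and 2.50 in amiRAP2.2-12, where the median of all probe sets was 0 in each. By the arrays themselves, all 5 genes had every hypoxia array above every air array in wild type, as did 19.8% of all probe sets. In each transgenic line 4 of 5 did so, against 16.5% in HA-RAP2.12 and 11.7% in amiRAP2.2-12, and AT1G53540 was the one that overlapped in both. For AT5G37670 in HA-RAP2.12 the separation was under 0.01 on the log2 scale, at 4.30 on both sides.

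In air limma called 0 of the 5 genes in any comparison between genotypes, also at an unadjusted p under 0.05, and the differences lay between -0.17 and 0.19. All probe sets were called in 0.536% of cases for HA-RAP2.12 against wild type, 0.0132% for amiRAP2.2-12 against wild type and 0.185% for the lines against each other. Under hypoxia AT1G53540 and Hop3 were lower in HA-RAP2.12 than in wild type, 2 of 5 against 2.58% of all probe sets called lower. In amiRAP2.2-12 AT1G53540 was lower, 1 of 5 against 0.813%. Every HA-RAP2.12 hypoxia array lay below every wild type one for 4 of the 5 genes, AT5G51440 being the exception, against 12.9% of all probe sets. In amiRAP2.2-12 this held for AT5G48570 and AT1G53540, against 6.59%. Between the lines under hypoxia limma called 0 of 5, against 1.01% of all probe sets. At an unadjusted p under 0.05 there was 1 of 5, against 2433 of all 22746 probe sets.

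Whether hypoxia acted differently in a line than in wild type was tested as the interaction of genotype and oxygen. For HA-RAP2.12 limma called 0 of 5, where 1.62% of all probe sets were called. At an unadjusted p under 0.05 there were 3 of 5, against 2542 of all 22746 probe sets. The interaction of AT1G53540 was -4.44 (SE 1.01, adjusted p = 0.0504), next to the threshold, and the one of Hop3 was -3.19 (SE 1.07, adjusted p = 0.209). For amiRAP2.2-12 limma called 0 of 5, against 0.176% of all probe sets. At an unadjusted p under 0.05 there were 2 of 5, against 2182 of all 22746 probe sets. There AT1G53540 stood at -3.23 (SE 1.01, adjusted p = 0.283) and Hop3 at -2.29 (SE 1.07, adjusted p = 0.534). These comparisons and those under hypoxia share the wild type arrays.

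**Figure D2:**
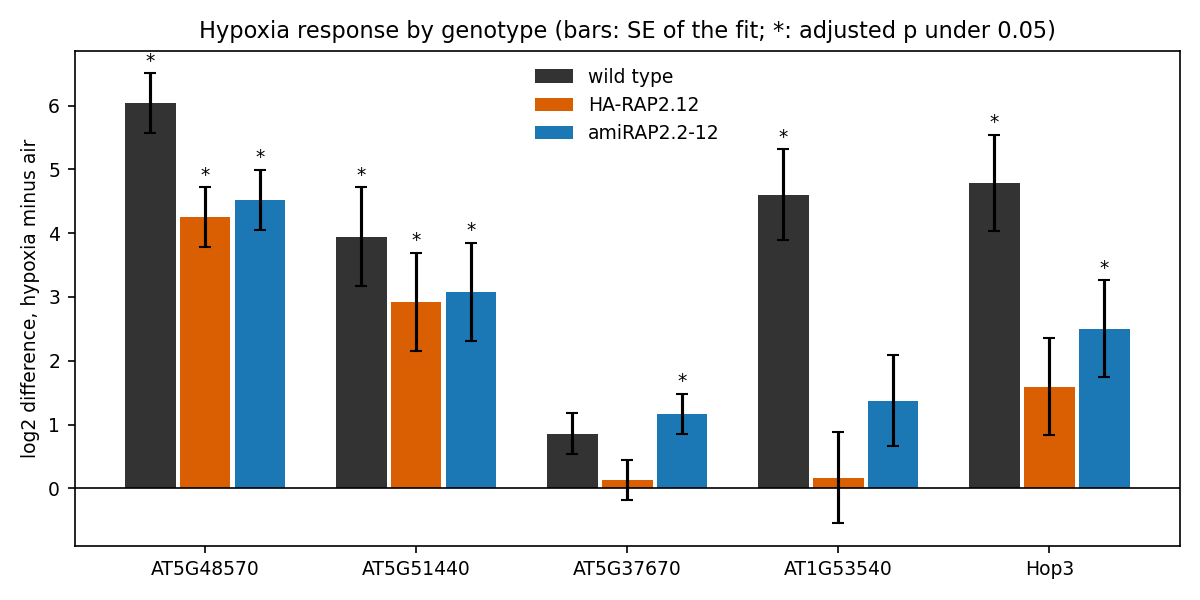
Log2 difference between hypoxia and air (y axis) of each gene in each genotype, with the SE of the limma fit as error bars and a star where the adjusted p was under 0.05. The response of AT1G53540 was 4.60 in wild type, 0.17 in HA-RAP2.12 and 1.38 in amiRAP2.2-12, whereas AT5G48570 carried a star in every genotype.

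The spread between amiRAP2.2-12 hypoxia arrays was the widest of the 6 groups for each of the 5 genes. Its SD was 2.16 for AT5G51440, 2.14 for AT1G53540, 2.09 for Hop3, 1.03 for AT5G48570 and 0.78 for AT5G37670, where the median SD of all probe sets in that group was 0.135. That median was also the widest of the 6 groups, the others lying between 0.0670 and 0.0936. Replicate 1 was the highest of the 3 for all 5 genes. Against the wild type air mean it stood 5.45 higher for AT5G51440, 4.66 for Hop3 and 3.86 for AT1G53540. Replicate 2 stood 1.22, 0.62 and 0.31 higher for the same genes, and replicate 3 stood 2.58, 1.70 and 0.02 higher. HA-RAP2.12 hypoxia replicate 1 was also the highest of its group for AT5G48570, AT1G53540 and Hop3, by a smaller margin.

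The high level on amiRAP2.2-12 hypoxia replicate 1 was not matched by the median of hypoxia-raised probe sets. A median does not show how many single probe sets were high on that array, and these were not counted. Over 741 other probe sets that rose by at least 1 in wild type, the median above the wild type air mean was 1.15 on that array, 1.12 on replicate 2 and 1.00 on replicate 3. The same median was 1.54, 1.54 and 1.58 on the wild type hypoxia arrays and 1.32, 1.11 and 1.14 on the HA-RAP2.12 ones. These probe sets were chosen on the wild type arrays, so their wild type level is a description.

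**Figure D3:**
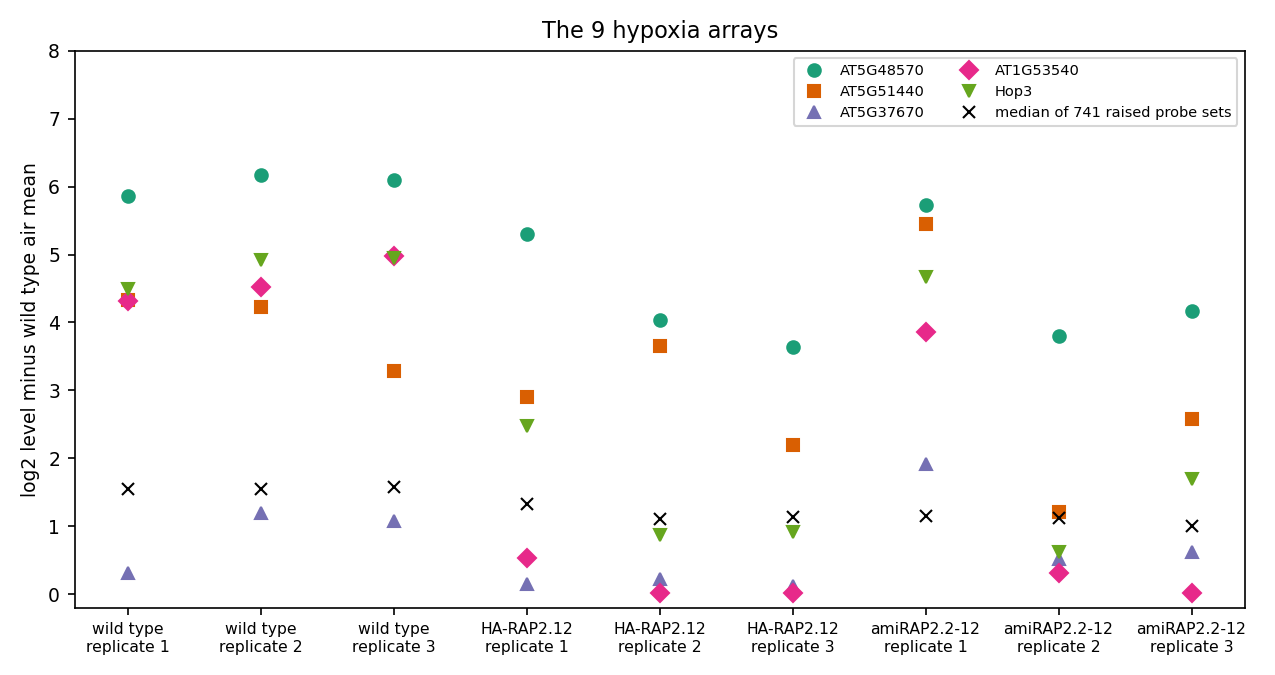
Log2 level above the wild type air mean (y axis) of the 5 genes on each of the 9 hypoxia arrays, with crosses for the median of 741 other probe sets raised in wild type. On amiRAP2.2-12 replicate 1 AT5G51440, Hop3 and AT1G53540 stand at 5.45, 4.66 and 3.86 while the cross stands at 1.15, near its place on the other amiRAP2.2-12 arrays.

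Nothing in the labels sets amiRAP2.2-12 hypoxia replicate 1 apart, and it was kept. It was singled out here because it read highest of its group for all 5 genes. Leaving it out therefore lowers their amiRAP2.2-12 hypoxia means and narrows the pooled SE by that choice. The p-values of the fit without it are a description. Because the fit pools the spread of all groups, that array also widened the SE of comparisons it did not enter: without it the SE of the AT1G53540 response in wild type was 0.16 in place of 0.72. Without it 4 of 5 genes were lower in amiRAP2.2-12 than in wild type under hypoxia: AT1G53540 (-4.44, adjusted p = 2.04e-07), Hop3 (-3.63, adjusted p = 0.000832), AT5G48570 (-2.06, adjusted p = 0.0122) and AT5G51440 (-2.05, adjusted p = 0.0227). The amiRAP2.2-12 rise with hypoxia then passed for 2 of 5, AT5G48570 and AT5G51440. The interaction passed for AT1G53540 and Hop3 in HA-RAP2.12 (adjusted p = 4.29e-06 and 0.00846) and in amiRAP2.2-12 (adjusted p = 5.2e-06 and 0.012), while interaction calls over all probe sets went from 369 to 684 and from 40 to 394. In the same fit AT5G37670 rose in wild type (0.86, adjusted p = 0.00928), Hop3 rose in HA-RAP2.12 (1.59, adjusted p = 0.0113), and AT5G48570 was lower in HA-RAP2.12 than in wild type (-1.71, adjusted p = 0.0139). All probe sets called between amiRAP2.2-12 and wild type under hypoxia went from 323 to 1021 with that array left out. In addition 4 other arrays, HA-RAP2.12 air 1 and hypoxia 1 and amiRAP2.2-12 air 2 and hypoxia 2, deviated together from their group means (correlations 0.242 to 0.634). Without those 4, amiRAP2.2-12 no longer passed against wild type under hypoxia for AT1G53540 (-2.66, adjusted p = 0.190).

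Within the 9 hypoxia arrays the 5 genes rose and fell together to differing degrees, which is given as a description since arrays of a group share their treatment. Pearson's r was 0.973 between AT5G48570 and Hop3, 0.963 between AT1G53540 and Hop3 and 0.917 between AT5G48570 and AT1G53540. The pairs that held AT5G51440 or AT5G37670 lay between 0.572 and 0.753. Over all 18 arrays the pairs lay between 0.741 and 0.944, a range that the step from air to hypoxia enters.

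The genes most like each of the 5 were sought by Pearson's r over the 18 arrays among 4092 single-gene probe sets that spanned at least 1 on the log2 scale. Nearest to AT1G53540 were AT1G71000, a DnaJ-domain protein gene (r = 0.966), HSA32, a heat-stress-associated protein gene needed for acquired thermotolerance (r = 0.960), and Hop3 (r = 0.943). Over the 9 hypoxia arrays alone these r were 0.958, 0.956 and 0.963. Under hypoxia AT1G71000 read 6.92, 6.70 and 6.87 in wild type, where HA-RAP2.12 had 3.91, 3.67 and 2.84. In amiRAP2.2-12 it read 6.69 on replicate 1 and 2.123 on the other two. HSA32 read 8.01, 7.68 and 7.73 in wild type hypoxia, one identical value of 6.29 on the 3 HA-RAP2.12 arrays, and 7.82, 6.10 and 6.65 in amiRAP2.2-12. These genes were picked by r over these same arrays, so their likeness on any array follows from the choice. The value 6.29 of HSA32 recurred on 6 of the 18 arrays.

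Nearest to Hop3 were AT5G18340, a plant U-box protein gene (r = 0.980), AT5G12110, annotated elsewhere as a subunit of translation elongation factor EF1B (r = 0.975), and AT1G30070, an SGS-domain protein gene (r = 0.969). AT5G12110 read 9.03, 9.21 and 9.25 in wild type hypoxia, where HA-RAP2.12 had 7.37, 7.01 and 6.98. In amiRAP2.2-12 it read 9.76, 6.84 and 7.58. AT5G48570 was most like AT1G55530 (r = 0.991), the DnaJ-family gene AT2G20560 (r = 0.988) and AT3G14200, a further DnaJ-domain protein gene (r = 0.987). AT5G51440 was most like AT5G65490 (r = 0.977), AT1G66080 (r = 0.976) and AT2G20560 (r = 0.973). AT5G37670 had the loosest neighbours, AT5G47610 (r = 0.865), AT5G12110 (r = 0.846) and AT3G10120 (r = 0.829).

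**Figure D4:**
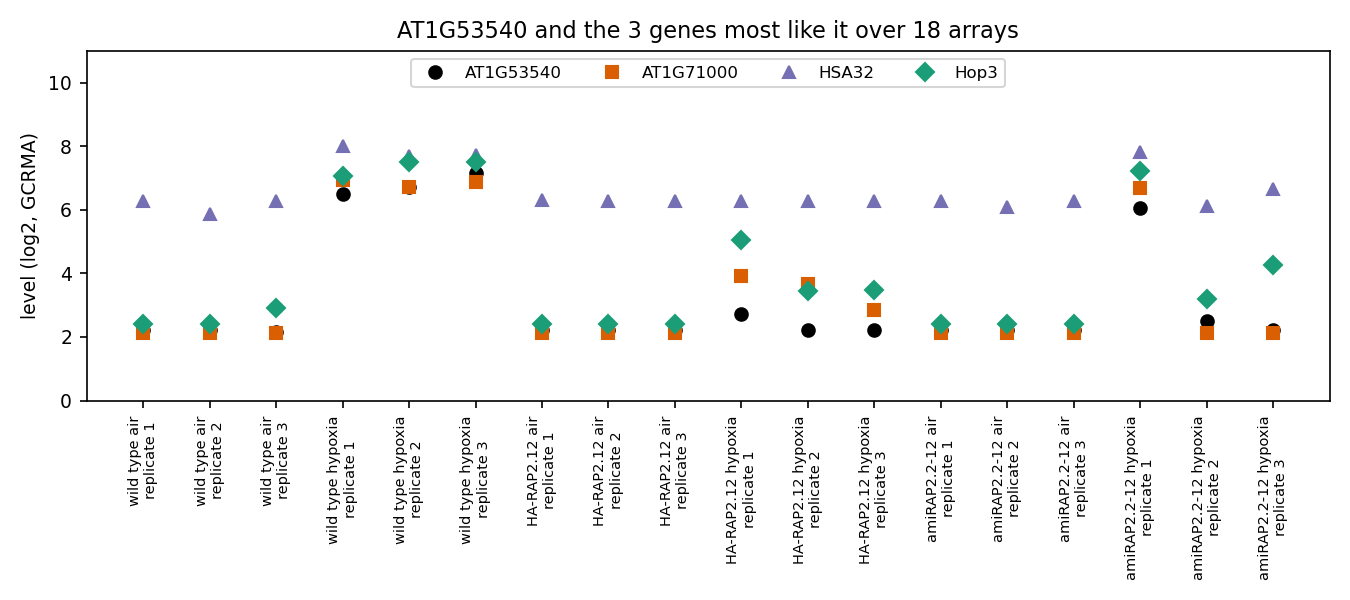
Log2 GCRMA level (y axis) of AT1G53540 and of the 3 genes most like it, AT1G71000, HSA32 and Hop3, on each of the 18 arrays (x axis, by group and replicate). The 3 genes were chosen for this likeness, and all 4 are high on the wild type hypoxia arrays and on amiRAP2.2-12 hypoxia replicate 1.

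To place the 5 genes among other chaperones, 8 lists of 115 loci were drawn up by function. Of these loci 28 had a probe set naming them alone, 23 of them besides the 5 genes, and the lists of HSP90 chaperones, of HSP100 and chaperonins, and of heat shock transcription factors had none and were not analysed here. In wild type 11 of the 23 rose and 2 fell, with a median of 0.34. Of all 22746 probe sets 2608 were called higher and 2343 lower there. In HA-RAP2.12 10 rose and 3 fell (median 0.36), against 2369 and 2035 of all probe sets. In amiRAP2.2-12 9 rose and 2 fell (median 0.49), against 1829 and 1882. Under hypoxia 1 of the 23 was higher and 3 were lower in HA-RAP2.12 than in wild type, against 476 and 587 of all probe sets. Limma called 0 of the 23 for amiRAP2.2-12 against wild type there, against 323 of all probe sets. The lists were drawn up with earlier results known, so these counts and those by list below are a description. For amiRAP2.2-12, 7 of the 23 stood at an unadjusted p under 0.05, against 2743 of all 22746 probe sets.

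Small heat shock protein genes went both ways. Of the 7 besides the 3 described above, 3 rose and 1 fell in wild type. ATHSP22.0 and AT1G52560 did not pass in any comparison. Their group means stayed at the floor (at most 2.133 and 2.114), so a change in them may have gone undetected. AT2G29500, of the same cytosolic class I as AT1G53540, went from 2.53 ± 0.30 to 9.62 ± 0.18 in wild type (n = 3 each), a rise of 7.09 (SE 1.06, adjusted p = 0.000355). It rose in HA-RAP2.12 by 3.27 (adjusted p = 0.0487) and differed by 2.62 (adjusted p = 0.127) in amiRAP2.2-12, where its hypoxia SD was 3.04. Whether the probes of these related genes cross-hybridise was not tested. AT1G54050, of cytosolic class III, rose in wild type by 2.999 (adjusted p = 0.00241), with differences of 0.57 in HA-RAP2.12 and 0.88 in amiRAP2.2-12 that did not pass. AT2G19310 rose in all 3 genotypes (3.21, 1.90 and 2.79) and was lower in HA-RAP2.12 than in wild type under hypoxia (-1.69, adjusted p = 0.0194). AT4G21870 fell in all 3, with differences of -3.53 (SE 0.27, adjusted p = 1.45e-06) in wild type, -2.79 in HA-RAP2.12 and -1.96 in amiRAP2.2-12. AT5G54660 rose in amiRAP2.2-12 alone by limma (0.65, adjusted p = 0.0273). Its differences of 0.25 in wild type and 0.36 in HA-RAP2.12 did not pass.

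Of 8 co-chaperone genes besides AT5G48570 and Hop3, 4 rose and 1 fell in wild type, 5 rose and 1 fell in HA-RAP2.12, and 4 rose in amiRAP2.2-12. Hop1 and Hop2 encode relatives of Hop3. Hop2 rose by 0.96 (SE 0.09, adjusted p = 7.64e-06) in wild type, 0.81 in HA-RAP2.12 and 0.76 in amiRAP2.2-12. Hop1 fell by 0.24 (SE 0.04, adjusted p = 0.000642) in wild type and by 0.25 in HA-RAP2.12, differed by -0.12 in amiRAP2.2-12, and in air was 0.22 higher in HA-RAP2.12 than in amiRAP2.2-12 (adjusted p = 0.0468). AT2G20560, a DnaJ-family HSP40 gene, rose by 4.10 (SE 0.49, adjusted p = 5.68e-05), 2.95 and 2.95 in wild type, HA-RAP2.12 and amiRAP2.2-12. Its air means lay at the floor (2.11 to 2.15), so these sizes are measured from there. SGT1A, an HSP90 co-chaperone of immune receptors, rose by 0.89, 1.41 and 1.37 in the same order. AT3G12050, which encodes a relative of the HSP90 ATPase activator Aha1, rose by 1.47, 0.67 and 0.98, and was lower in HA-RAP2.12 than in wild type under hypoxia (-0.82, adjusted p = 0.0306).

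Of 3 HSP70 genes 2 rose in every genotype: AT3G09440 by 2.08, 2.38 and 1.98 and Hsp70-2 by 1.30, 1.75 and 1.54 in wild type, HA-RAP2.12 and amiRAP2.2-12. Under hypoxia AT3G09440 differed from wild type by 0.47 (adjusted p = 0.241) in HA-RAP2.12. HSA32 rose in wild type by 1.66 (SE 0.31, adjusted p = 0.00156), with 0.00 in HA-RAP2.12 and 0.64 in amiRAP2.2-12, and was lower in HA-RAP2.12 under hypoxia (-1.52, adjusted p = 0.0151). Its interaction for HA-RAP2.12 was -1.66 (adjusted p = 0.0862). HSA32 held one value, 6.29, on 6 of the 18 arrays. Levels near it may lie at background, which was not tested, so these sizes may understate the change in RNA.

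Of 4 genes of protein folding in the endoplasmic reticulum, 1 rose in wild type, DER2.1 (0.61, adjusted p = 0.000779). BZIP60, a transcription factor of the unfolded protein response, rose in HA-RAP2.12 by 1.29 (SE 0.16, adjusted p = 7.37e-05) and differed by -0.41 (adjusted p = 0.0917) in wild type. It was higher in HA-RAP2.12 than in wild type under hypoxia (1.02, adjusted p = 0.00416). Its HA-RAP2.12 interaction passed (1.70, SE 0.22, adjusted p = 0.00335), opposite in sign to those of AT1G53540 and Hop3, which did not pass. That interaction also holds a difference from wild type in air (-0.67, adjusted p = 0.0940), which did not pass. For amiRAP2.2-12 the air difference was -0.54 (adjusted p = 0.317) and the interaction 0.85 (adjusted p = 0.184). The calnexin gene AT5G07340 fell in HA-RAP2.12 (-0.56, adjusted p = 0.0353) and differed by -0.49 in wild type (adjusted p = 0.0579) and in amiRAP2.2-12 (adjusted p = 0.0707). ATERDJ3B, a DnaJ-family gene of that compartment, fell in amiRAP2.2-12 (-0.32, adjusted p = 0.0367) and differed by -0.18 in wild type (adjusted p = 0.230) and in HA-RAP2.12 (adjusted p = 0.263).

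**Figure D5:**
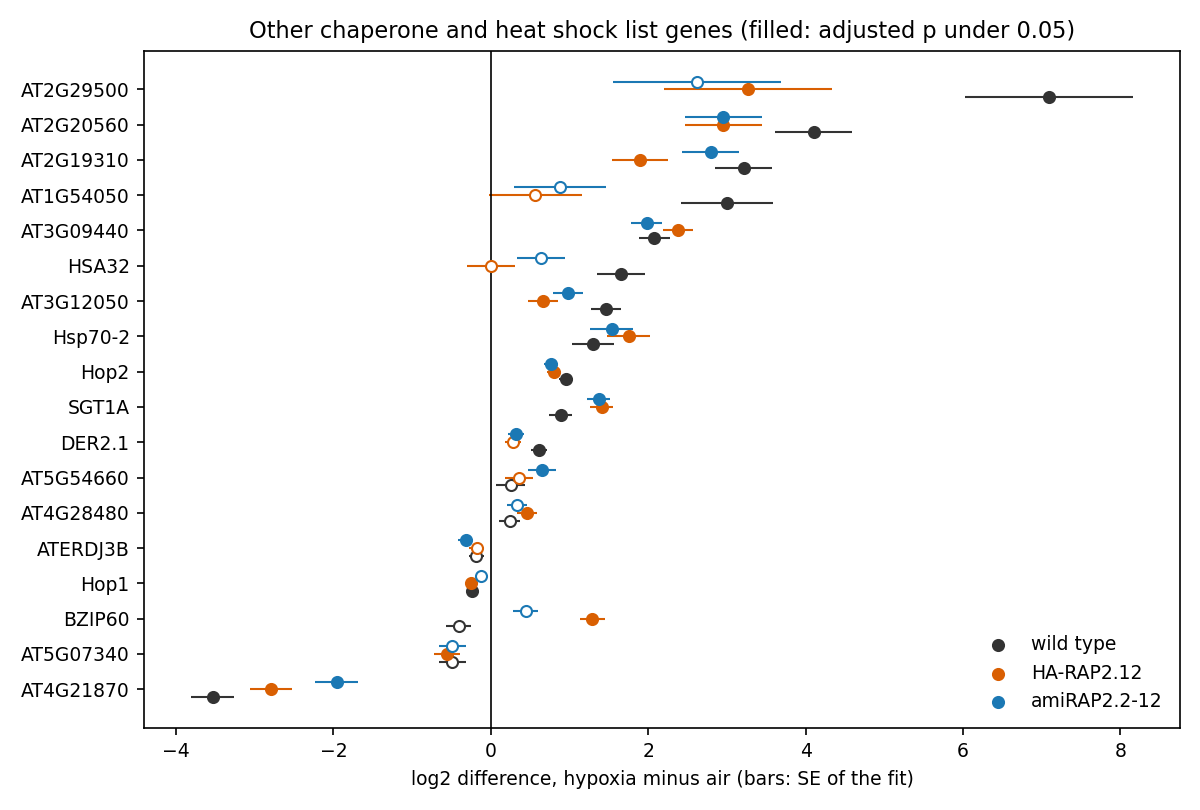
Log2 difference between hypoxia and air (x axis) in the 3 genotypes for the 18 other list genes called in at least 1 genotype, with the SE of the fit as bars and filled points where the adjusted p was under 0.05. AT2G29500, AT1G54050 and HSA32 have wild type points (7.09, 2.999 and 1.66) to the right of both transgenic lines, while AT3G09440 and Hop2 have similar points in all 3.

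Leaf markers were well above the floor on all arrays. Those with a named probe set were 4 of 12, the Rubisco activase gene RCA lying between 14.9 and 15.1 on the 18 arrays, SBPASE between 13.01 and 13.54, PRK between 13.1 and 13.7 and LHCB4.3 between 7.66 and 10.6. Of the 2 root markers AT4G11290 stayed between 2.11 and 2.80 and PYK10 between 3.85 and 8.76. From air to hypoxia the group mean of PYK10 went from 7.89 to 8.66 in wild type, from 7.81 to 6.86 in HA-RAP2.12 and from 8.26 to 6.27 in amiRAP2.2-12. That of LHCB4.3 went from 9.64 to 7.86, from 9.99 to 10.2 and from 9.97 to 9.74 in the same order. Both thus moved with genotype and oxygen. The part of these markers in the results above was not tested. The RAP2.12 and RAP2.2 transcripts, which would check the genotypes, had no probe set naming them alone and were not analysed here. Pairs of arrays correlated at 0.970 to 0.999, and no pair held identical values.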

How the data were processed

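The deposited table holds 1 log2 value per probe set and array, made by the authors with GCRMA, per the submitters' processing notes; the version, probe annotation and any filter are not given in the sources used here. GCRMA corrects for background and sets unresponsive probe sets to nearly equal low values, so 35.4% of all values lay under log2 2.5 and many repeated exactly. From 22810 probe sets 64 control probe sets were left out. The values were fitted as deposited with limma 3.58.1 (lmFit and eBayes, R 4.3.3), 6 group means over 18 arrays, and 11 comparisons, each adjusted by the Benjamini-Hochberg method over 22746 probe sets. Tables and figures were made with Python 3.11.15, pandas 2.3.3 and matplotlib 3.10.9. The fit was tested on simulated data. The precision is limited by 3 arrays per group.

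Genes were named through the platform annotation, where 13513 probe sets name 1 gene, 503 several and 8730 were not listed. The 5 genes, the lists and the tests were chosen with earlier results of these data known. The rule for other named genes was up to 4 per list with the smallest adjusted p in any comparison, any called against its list's direction, and the 3 nearest by Pearson's r. ATHSP22.0, AT1G52560 and AT5G54660 fall outside it and were named after their values were seen. Deviations of same-numbered air and hypoxia arrays of 1 genotype correlated positively in 9 of 9 pairs (0.051 to 0.490), and 6 of these were over 0.1. Over all 45 same-numbered pairs the correlations ran from -0.574 to 0.490, with 9 over 0.1. In no genotype were all 3 pairs over 0.1. The labels give the numbers no shared source, and the main fit treated all arrays as unpaired. Whether same-numbered air and hypoxia arrays of 1 genotype are paired was not tested. The p-values of hypoxia against air and of the interactions rest on that choice. Alternatives were quantile normalisation, median centring, a filter (above log2 4 on at least 3 arrays), eBayes with trend and robust options, array weights, only the arrays compared, a replicate block, a minimum log2 difference of 1 and leaving out each array. A fit without 4 arrays that deviated together (HA-RAP2.12 air 1 and hypoxia 1, amiRAP2.2-12 air 2 and hypoxia 2, correlations 0.242 to 0.634 over 6 pairs) was chosen after seeing the data. No sequences or coordinates are printed, since the deposited values name no genome build.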

Additional observations from a re-analysis of the deposited data

How the results depend on the processing

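Of 55 gene differences 13 passed, and 7 of these passed under every alternative: AT5G48570 in all 3 genotypes, the wild type rises of AT5G51440, AT1G53540 and Hop3, and the lower AT1G53540 in HA-RAP2.12 than in wild type under hypoxia. The number of the 5 genes called moved by over 1.5 times as follows, and the cause was not tested beyond the widened SE described for amiRAP2.2-12 hypoxia replicate 1. With only the arrays compared, it was 1 for amiRAP2.2-12 hypoxia against air (from 4), 1 for HA-RAP2.12 against wild type under hypoxia (from 2), 0 for amiRAP2.2-12 against wild type under hypoxia (from 1) and 2 for the HA-RAP2.12 interaction (from 0). Calls over all probe sets then went from 3711 to 642, 1063 to 902, 323 to 10 and 369 to 997 in the same order. With array weights the counts of the 5 genes became 4 for HA-RAP2.12 and 3 for amiRAP2.2-12 against wild type under hypoxia, and 3 and 1 for their interactions, while calls over all probe sets rose from 1063 to 3926, 323 to 2400, 369 to 1393 and 40 to 735. For amiRAP2.2-12 against wild type under hypoxia the count was 0 with trend and robust options and 0 with the replicate block. It was also 0 without the 4 arrays that deviated together. The block changed no other count of the 5 genes. Its replicate effects were shared by all genotypes, so it cannot test a pairing within a genotype. Median centring and the filter on dim probe sets each gave 1 for the HA-RAP2.12 interaction. Leaving out each array in turn gave 1 to 3 for HA-RAP2.12 hypoxia against air, 2 to 4 for amiRAP2.2-12 hypoxia against air, 1 to 3 and 0 to 4 for HA-RAP2.12 and amiRAP2.2-12 against wild type under hypoxia, and 0 to 2 for each interaction.

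No difference that passed changed sign. Among those that did not pass, leaving out 1 array changed the sign of AT5G48570 (-0.12 to 0.23), AT5G37670 (-0.087 to 0.10) and AT1G53540 (-0.00034 to 0.031) for HA-RAP2.12 against wild type in air. In air it also turned AT5G48570 for amiRAP2.2-12 against wild type (-0.15 to 0.20) and for the lines against each other (-0.094 to 0.16). Under hypoxia it turned AT5G51440 (-2.05 to 0.068) and AT5G37670 (-0.29 to 0.41) for amiRAP2.2-12 against wild type. Between the lines under hypoxia it turned AT5G48570 (-0.73 to 0.34), AT5G51440 (-1.09 to 1.03), AT1G53540 (-1.90 to 0.026) and Hop3 (-1.76 to 0.26). In the amiRAP2.2-12 interaction it turned AT5G51440 (-2.05 to 0.069) and AT5G37670 (-0.14 to 0.56). Quantile normalisation turned AT5G48570 (-0.032) and AT5G51440 (0.00115) for amiRAP2.2-12 against wild type in air. Median centring turned AT1G53540 in that comparison (-0.012), and AT5G51440 (0.028) and AT1G53540 (0.029) between the lines in air. Without the 4 arrays AT5G48570 turned between the lines in air (-0.077), and AT5G51440 turned for amiRAP2.2-12 against wild type under hypoxia (0.0681) and in its interaction (0.0683). Array weights turned AT5G37670 for amiRAP2.2-12 against wild type under hypoxia (-0.058).

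Precision rests on 3 arrays per group, and the 5 genes varied more in amiRAP2.2-12 hypoxia than the pooled SE assumes. Of 1398 recomputed gene differences 1287 kept their direction and their side of the threshold. Air levels at the floor bound what the size of a rise can show.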
